A study of Mus musculus with 4 samples.

Results

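Chromatin accessibility was described around 8 genes of the epithelial-mesenchymal transition (EMT), Snai1, Snai2, Twist1, Zeb1, Zeb2, Cdh1, Cdh2 and Vim, out of 21827 protein-coding genes of the mouse annotation. The genes were chosen by name and not by their signal, though earlier results of these data were known. The peaks examined were all those within 1 kb, taken as the promoter, and within 50 kb of any annotated transcription start of the 8 genes on the mm10 genome. Peaks of the 4 lists that shared at least 1 bp were merged into 80380 regions, of which 72 lay within 50 kb of the 8 genes and 11 within 1 kb.

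The 4 libraries came from an assay for transposase-accessible chromatin with sequencing (ATAC-seq) of embryoid bodies collected on day 4 of differentiation. Embryoid bodies are aggregates that mouse embryonic stem cells form in hanging drops once the factor that keeps them undifferentiated, LIF, is withdrawn. Both genotypes derive from the E14Tg2A stem cell line. There were 2 libraries of wild-type (WT) bodies and 2 of bodies grown from cells edited with CRISPR/Cas9 so that CTCF, the zinc-finger protein that anchors chromatin loops, carries arginine in place of a lysine (CTCF-K20R). The mutant cells are clonal and all stem cells had been kept on inactivated mouse embryo fibroblasts, so a difference between the genotypes is also a difference between a clone and its parent line. The study calls the libraries of a genotype biological replicates. With 2 libraries a side the smallest exact two-sided permutation p is 0.333, so no single value compared by that test could pass 0.05.

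In EMT, epithelial cells give up their junctions and become migratory; the same programme lets cells leave the primitive streak as mesoderm and endoderm form in the embryo and in embryoid bodies. SNAI, TWIST and ZEB transcription factors drive it and repress Cdh1, which encodes E-cadherin, the adhesion molecule of epithelia and of embryonic stem cells. Cdh2 (N-cadherin) and Vim (the intermediate filament vimentin) mark the mesenchymal state.

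The lists held 59783 and 66703 peaks in WT against 51823 and 55832 in K20R. Each peak's strength was taken as its percentile within its own list, ranked by the peak caller's p-value. The height of the summit, here called the pileup, is the whole number of sequenced fragments or reads stacked there, and was recovered from the deposited columns for all peaks of every list. The median pileup of all peaks was 25 and 33 in WT against 29 and 38 in K20R, so replicate 2 had the higher pileups in each genotype and pileups are to be read within a replicate number or after normalisation. The depth in reads was not given in the sources used here. Promoters of all 8 pluripotency markers, 9 of 10 early mesoderm markers, 5 of 6 endoderm markers and 6 of 6 neuroectoderm markers carried a peak in all 4 lists, whereas Msgn1, Afp and 4 of 12 fibroblast markers (Col3a1, Postn, Lum and Fap) carried none in any list. An open promoter does not show that a gene is transcribed.

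The first question was whether the promoters themselves were open in both genotypes. All 8 promoters had a peak in every list. Snai2 was the strongest in 3 of 4 libraries, with Cdh1 above it in K20R replicate 2, and Zeb1 and Twist1 were the weakest in all 4. Snai2 stood at the 98.0 and 96.8 percentiles in WT against 96.9 and 95.3 in K20R. Snai1 stood at 92.9 and 93.0 in WT against 95.7 and 91.3 in K20R. Twist1 stood at 77.6 and 69.9 against 70.5 and 63.2, and Zeb1 at 70.1 and 67.3 against 71.8 and 61.2. The values of the genotypes overlapped for all 4 of these genes, and neighbours in the order such as Twist1 and Zeb1 did not differ beyond the spread of their libraries.

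Among the remaining 4 genes the order of the genotypes was fixed for Cdh1 and Vim. Cdh1 stood at 86.8 and 82.7 in WT against 95.4 and 96.8 in K20R, so both K20R values lay above both WT values. Its mean was 84.7 ± 2.93 in WT and 96.1 ± 0.945 in K20R (SD, n = 2 each). Vim stood at 86.2 and 92.0 in WT against 84.8 and 80.1 in K20R, a mean of 89.1 ± 4.1 against 82.4 ± 3.36. Zeb2 (78.7 and 82.3 against 73.6 and 81.2) and Cdh2 (82.2 and 77.6 against 80.6 and 82.2) overlapped. By this count 1 of 8 promoters was lower and 1 higher in K20R, where 32.2% of the 14480 genes with a promoter peak in all lists were lower and 15.7% higher. The exact permutation p was 0.333 for both genes.

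The lists differ in length, and the ranks were therefore also taken anew among the 14480 genes alone. Cdh1 then moved from the 50.5 and 36.7 percentiles of genes in WT to 82.8 and 86.9 in K20R, a mean gain of 41.3 points. Vim no longer had a fixed order, with 48.8 and 65.1 in WT against 49.5 and 34.9 in K20R. Cdh2 came to lie slightly higher in K20R, with 38.3 and 26.1 against 38.9 and 39.8. On this scale 0 of the 8 promoters were lower and 2 higher, beside 22.9% and 23.8% of all genes. The Vim order was also lost when peaks were ranked by fold enrichment and when every list was cut to the same number of strongest peaks. The Cdh1 order was kept in each of these rankings. Leaving 1 library out cannot undo an order that all libraries share, so it was no further check.

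**Figure D1:**
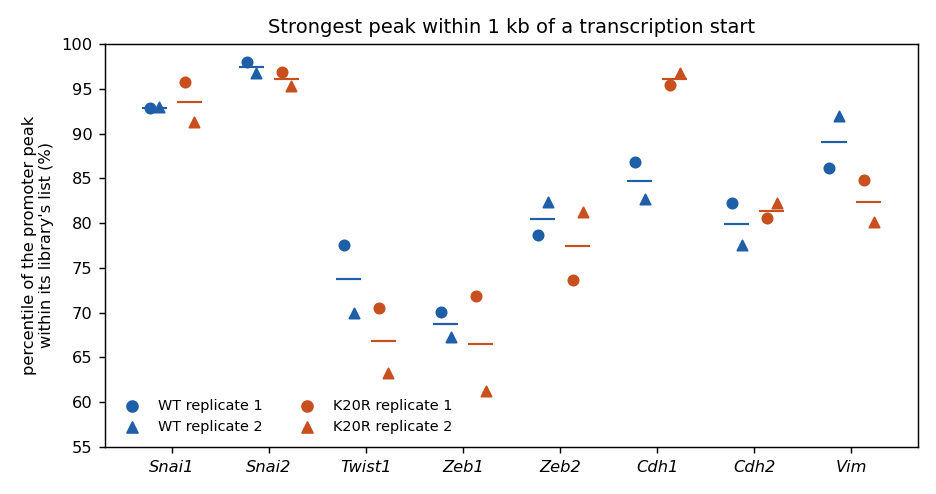
Percentile of the strongest peak within 1 kb of a transcription start (vertical axis, percent of the peaks of its own list; the axis starts at 55) for the 8 genes, with 1 point per library (WT blue, K20R orange; circles replicate 1, triangles replicate 2) and a line at each genotype's mean. Cdh1 is the gene with both K20R points, 95.4 and 96.8, clearly above both WT points, and the Vim K20R points, 84.8 and 80.1, lie below the WT points.

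The second question was which elements around the genes were held by 1 genotype only. A region was called restricted when both libraries of one genotype had a peak there and neither library of the other did, and common when all 4 did. Of the 72 regions 35 were common, 11 were WT-restricted, 2 were K20R-restricted and 24 were mixed. The WT-restricted share was 15.3% beside 10.4% of all 80380 regions, and the K20R-restricted share was 2.78% beside 3.1%. All 13 restricted regions lay outside the promoters. The WT-restricted ones were at Cdh2 (5), Vim (2), Cdh1 (2), Snai1 (1) and Zeb2 (1), so Cdh2 alone supplied almost as many as the other genes together, and 6 of 62 regions (9.68%) were WT-restricted without it.

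Counted per library, the 8 genes had 57 and 64 regions in WT against 45 and 47 in K20R. The means were 60.5 ± 4.95 and 46.0 ± 1.41 (SD, n = 2 each; exact permutation p = 0.333). The WT lists are longer, and with the same number of strongest peaks taken from every list the means were 52.5 and 45.0. K20R had fewer regions in both libraries at Cdh2, with 7 and 10 regions against 2 and 3, at Vim with 5 and 7 against 3 and 3, at Zeb2 with 10 and 11 against 8 and 8, and at Cdh1 with 14 and 13 against 12 and 11. The K20R lists are shorter, and the share of all genes with fewer regions in both K20R libraries was not counted. These counts therefore do not set the genes apart from others. Within 10 kb of the starts the means were 21.0 and 20.5. Snai1 had 14 and 15 against 13 and 15, Twist1 4 and 5 against 4 and 4, and Zeb1 and Snai2 had 2 and 1 in every library. The WT-restricted count was 17 without WT replicate 1 and 17 without K20R replicate 2, and the K20R-restricted count was 5 without WT replicate 2 and 5 without K20R replicate 2. With a library left out fewer libraries have to agree, so these counts can only stay or rise.

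The deposited lists are not all that was called. Peaks are numbered along the genome when they are called, and the lists keep 51.7% and 50.5% of the numbers in WT and 58.6% and 60.8% in K20R, so an absent peak may have been called and then removed. Where the peaks on both sides of a gap carry consecutive numbers, nothing was called between them. That number is given below for each restricted region.

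**Figure D2:**
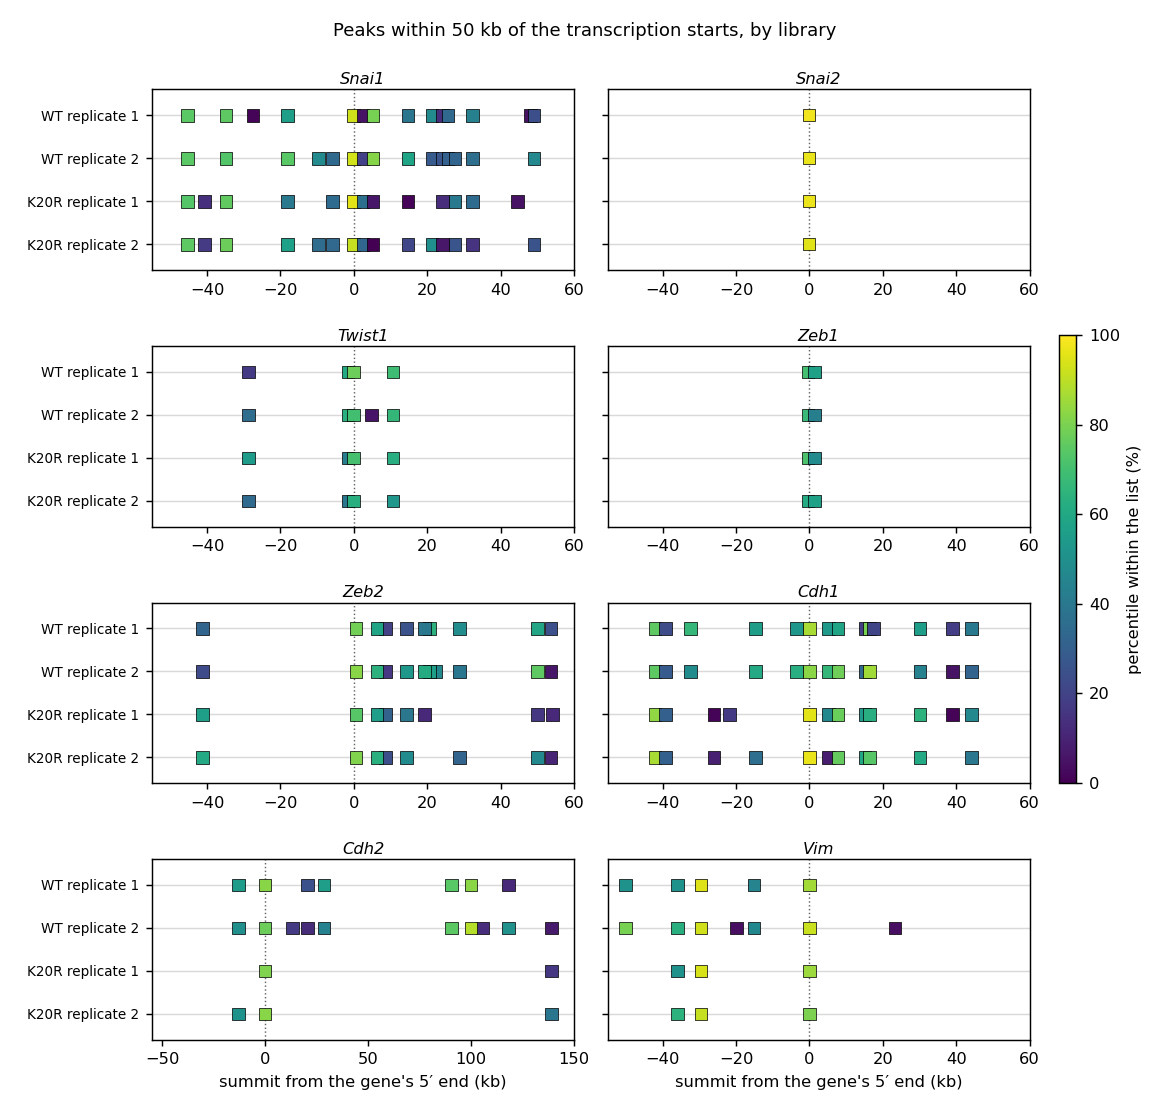
Each square is a region with a peak in that library, placed by the distance of its strongest summit from the gene's 5′ end (horizontal axis, kb, positive into the gene; the Cdh2 panel is wider because its second start lies far inside the gene) and coloured by its percentile within the list. The K20R rows of Cdh2 are empty between the 5′ end and the second start, while Snai2 and Zeb1 show their promoters alone.

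The third question was whether regions open in all 4 lists were open to the same degree. The log2 pileup of the 38527 common regions was quantile-normalised and compared with limma, as K20R minus WT, and a region was called at an adjusted p under 0.05 over all of them. Of the 35 common regions of the 8 genes, 4 were called lower and 6 higher in K20R (11.4% and 17.1%), beside 10.7% and 9.73% of all common regions. Of the 6 higher regions 5 were at Cdh1. Without Cdh1 the count was 4 lower and 1 higher of 26. The median difference was -0.05 over the 35 regions and 0.03 over all common regions. At the 8 promoters only Cdh1 was called, beside 5.29% lower and 7.43% higher of 14534 gene promoters. With any 1 library left out a genotype keeps a single library, so the calls could not be checked there and rest on all 4 libraries together. All 10 called regions kept their direction in those fits.

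**Figure D3:**
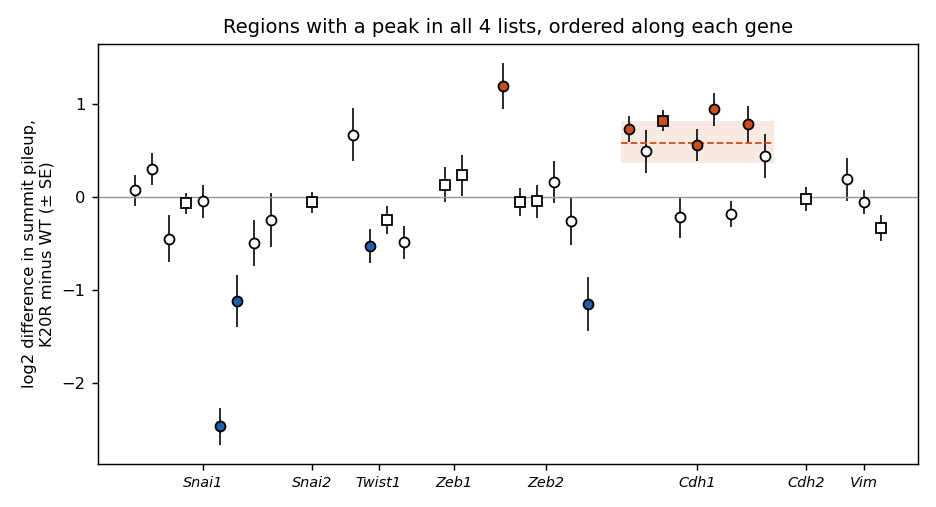
Difference in log2 summit pileup between K20R and WT (vertical axis, estimate ± SE from limma, 2 libraries a side) for the 35 regions with a peak in all 4 lists, ordered along each gene. Squares are promoters; filled symbols passed an adjusted p of 0.05 (blue lower, orange higher in K20R); the dashed line and band at Cdh1 are the median and the middle range (0.36 to 0.82) of the chromosome 8 stretch. The point at -2.47 is the region downstream of Snai1.

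Snai1, at chr2:167538195-167542814 on the plus strand, encodes the zinc-finger repressor Snail and had the richest surroundings, with 19 regions. Of its 9 common regions 7 had a value below 0. The largest difference among the 35 common regions was just past its 3′ end, in an intergenic region at chr2:167542938-167544231 whose strongest summit lay 5.3 kb from the start. The pileup there was 89 and 125 in WT against 20 and 20 in K20R. In WT the region ranked near the Zeb2 promoter, at the 79.5 and 81.7 percentiles, and in K20R it was among the weakest peaks of its lists, at 5.62 and 0.143. The difference was -2.47 ± 0.20 on the log2 scale (limma, adjusted p = 5.38e-07), and 51 of the 38527 common regions (0.132%) had a difference as low.

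The gene's own promoter was not called, with a pileup of 126 and 179 in WT against 140 and 179 in K20R (-0.07 ± 0.11, limma adjusted p = 0.713). At the downstream region the fold enrichment over local background fell as well. It was 4.69 and 5.82 in WT against 2.09 and 1.77 in K20R (limma, adjusted p = 8.9e-05). The 300 bases around the strongest summit are shown because no other common region near these genes differed as much. Restricted regions have no such value. Capitals mark the 20 bases at the summit, which is that of WT replicate 2 (chr2:167543300-167543599, plus strand, GRCm38, the assembly of mm10). None of the 5 motifs searched for was found in this window.
Snai1 downstream region: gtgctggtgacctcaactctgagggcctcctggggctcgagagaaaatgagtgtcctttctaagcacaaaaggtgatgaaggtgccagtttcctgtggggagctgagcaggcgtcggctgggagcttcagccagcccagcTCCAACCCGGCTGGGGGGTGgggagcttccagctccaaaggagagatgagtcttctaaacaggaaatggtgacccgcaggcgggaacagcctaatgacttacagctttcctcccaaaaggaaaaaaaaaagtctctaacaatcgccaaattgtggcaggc

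A second region downstream of Snai1, at chr2:167552553-167553367 and 14.8 kb from the start, also fell. Its pileup was 19 and 36 in WT against 10 and 17 in K20R (-1.12 ± 0.28, limma adjusted p = 0.00819), and it stood at the 39.4 and 58.4 percentiles in WT against 1.06 and 21.3 in K20R. The genotypes did not overlap, the nearest values being 17 in K20R and 19 in WT. By the mean percentile over the 4 lists the strongest Snai1 region outside 1 kb was the promoter of the neighbouring gene Rnf114 at chr2:167502809-167504479, with percentiles of 75.3 and 73.0 in WT against 75.4 and 77.7 in K20R and no called difference (0.30 ± 0.17, limma adjusted p = 0.228). Snai1 had 1 WT-restricted region, chr2:167563726-167564081, at the 33.4 and 30.7 percentiles, and 1 K20R-restricted region inside an Rnf114 intron, chr2:167497231-167497800, at 13.8 and 17.2. Neighbouring peak numbers were consecutive around both in the lists that lacked them.

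Of the 72 regions 2 held the CTCF consensus motif within 150 bp of the strongest summit (2.78%, beside 6.22% of all regions), and 1 of them lay upstream of Snai1. It is shown because CTCF is the protein that was mutated. The region, chr2:167532123-167532607, lay 5.9 kb before the start and was a moderate peak at the 33.6 percentile in WT replicate 2 and at 34.5 and 33.3 in K20R. WT replicate 1 lacked it, with 2 called numbers missing there. Capitals mark, in order, a T-box (TCACACCT, here on the minus strand), the type of site that Brachyury and Eomes bind, an E-box of the type that SNAI and ZEB proteins bind (CACCTG) and the CTCF consensus (chr2:167532176-167532475, plus strand, GRCm38). A T-box occurred in 5 of the 72 regions (6.94%) and in 1.72% of all regions. A match of letters does not show that a protein binds.
Snai1 upstream region: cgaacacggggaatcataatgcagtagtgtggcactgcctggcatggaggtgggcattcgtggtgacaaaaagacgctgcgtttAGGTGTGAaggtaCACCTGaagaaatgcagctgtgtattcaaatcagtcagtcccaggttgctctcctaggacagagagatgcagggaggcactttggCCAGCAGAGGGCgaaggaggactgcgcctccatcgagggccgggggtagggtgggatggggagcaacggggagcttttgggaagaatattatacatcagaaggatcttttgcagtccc

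Zeb2, at chr2:44983632-45117395 on the minus strand, encodes a zinc-finger homeodomain repressor and had 8 annotated starts and 12 regions. Its promoter was not called, with a pileup of 60 and 101 in WT against 58 and 107 in K20R (-0.06 ± 0.15, limma adjusted p = 0.828). A second promoter region at chr2:45109233-45111338 had 42 and 65 against 40 and 70. Of its 6 common regions 1 was called lower and 1 higher. The higher one, the intergenic region chr2:45158065-45159041 at 41.3 kb before the start, had 15 and 15 in WT against 29 and 45 in K20R and rose by 1.19 on the log2 scale (SE 0.25, limma adjusted p = 0.00241). It was the single region outside Cdh1 that was called higher, and its raw pileups did not overlap between the genotypes.

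By the mean percentile over the lists that held it, the strongest Zeb2 region outside the promoters was WT-restricted. It overlapped an exon at chr2:45096568-45097063 and stood at the 63.8 and 56.2 percentiles in WT, with a pileup of 35 and 46. In both K20R lists the neighbouring peak numbers were consecutive, so no peak was called there. The mean scored this region by WT alone and common regions by both genotypes, so it does not rank them within WT.

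**Figure D4:**
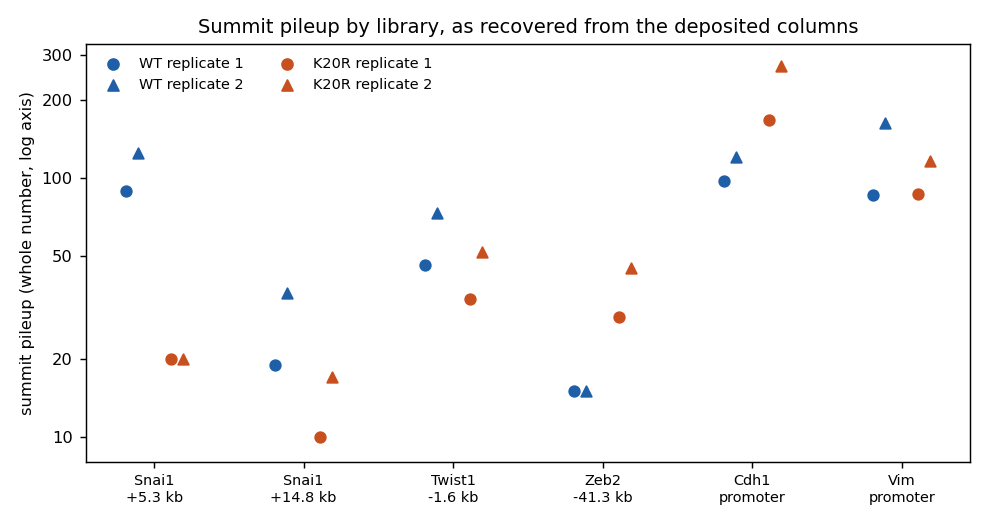
Summit pileup (log axis) in each library (WT blue, K20R orange; circles replicate 1, triangles replicate 2) at 4 called regions outside Cdh1 and, for comparison, at the Cdh1 and Vim promoters; labels give the distance from the nearest start. At Snai1 +5.3 kb both K20R points sit at 20, below 89 and 125 in WT, and at Zeb2 -41.3 kb the order is the opposite.

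Around Snai2 no region was called, and around Twist1 1 was. Snai2, which encodes the zinc-finger repressor Slug, had its promoter as the only region within 50 kb (chr16:14705264-14706363), with a pileup of 114 and 163 in WT against 121 and 170 in K20R (-0.06 ± 0.11, limma adjusted p = 0.752). The nearest other regions were 212 and 200 kb away. Twist1, which encodes a basic helix-loop-helix factor, had 5 regions. Its promoter (chr12:33956695-33959063) had a pileup of 67 and 86 against 57 and 80 (-0.25 ± 0.15, limma adjusted p = 0.288). A small region next to it, chr12:33955966-33956349, fell from 46 and 73 to 34 and 52 (-0.53 ± 0.18, limma adjusted p = 0.0429) and overlapped between the genotypes across replicate numbers. It was lost as a call with fold enrichment (limma adjusted p = 0.618). The strongest distal region of Twist1, 10.6 kb from the start, had 51 and 70 against 39 and 50 (-0.49 ± 0.18, limma adjusted p = 0.0594), so 3 of 4 common Twist1 regions had values below 0 and 1 passed.

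Cdh1, at chr8:106603351-106670246 on the plus strand, was the gene with the most regions called higher in K20R. It lies inside a stretch of chromosome 8, chr8:61927660-112046551, that was known from earlier results of these data to be raised in K20R, and its values are given beside those of the stretch. The promoter pileup was 97 and 121 in WT against 167 and 271 in K20R. The difference was 0.82 ± 0.11 on the log2 scale (limma, adjusted p = 6.82e-05). The region 42.1 kb upstream had 50 and 69 in WT against 81 and 132 in K20R (0.73 ± 0.14, limma adjusted p = 0.0014). The 3 intronic regions that rose lay 7.8, 15.1 and 30.1 kb into the gene, with differences of 0.56 ± 0.17, 0.94 ± 0.18 and 0.78 ± 0.20 (limma, adjusted p of 0.032, 0.00103 and 0.00882). At the promoter and at the upstream region every K20R value exceeded every WT value.

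In the stretch as a whole the 1039 common regions had a median difference of 0.58 (middle range 0.36 to 0.82), and 63.6% of them were called higher and 2.98% lower. The Cdh1 promoter lay 0.24 above that median, with 74.9% of the stretch below it, and 71 of 420 promoters in the stretch (16.9%) differed as much or more. The other called Cdh1 regions lay between -0.03 and 0.36 of the median. The local background with which the peak caller compares each peak moved with the pileup. Over the stretch its median was 5.93 and 6.81 in WT against 9.73 and 11.47 in K20R, and elsewhere 5.25 and 6.23 against 5.7 and 6.66. At the Cdh1 promoter it was 14.7 and 18.2 in WT against 23.0 and 31.8 in K20R. Fold enrichment over that background was 6.25 and 6.35 against 7.0 and 8.29, and on this scale none of the 5 regions was called (promoter 0.31 ± 0.21, limma adjusted p = 0.487). Whether the raised level around Cdh1 belongs to the gene or to the stretch cannot be told apart from these values.

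Of the 9 common Cdh1 regions 2, both intronic, had values below 0. The region chr8:106608293-106608743 had 46 and 81 in WT against 59 and 50 in K20R (-0.22 ± 0.22, limma adjusted p = 0.543), and 5.77% of the stretch lay below it. The region chr8:106619424-106620193 had 73 and 127 against 66 and 123 (-0.19 ± 0.14, limma adjusted p = 0.371), with 6.26% below. In addition 2 regions upstream were WT-restricted, as were 5.22% of the 1994 regions of the stretch. One, chr8:106599420-106599985, lay 3.5 kb before the start, at the 53.5 and 62.6 percentiles with a pileup of 45 and 73; of the called numbers 1 was missing there in the first K20R list and 0 in the second. The other, chr8:106570691-106571290, stood at 66.6 and 48.1, with 1 and 2 numbers missing. The K20R-restricted region chr8:106577019-106577603 was weak, at 0.826 and 8.77, and 2 called numbers were missing there in each WT list.

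The Cdh1 promoter is shown because SNAI and ZEB repressors are known to act on it through E-boxes. The 300 bases before the 5′ end held 3 copies of CACCTG in either orientation, in capitals, of which a pair stand back to back; they begin 69, 63 and 13 bases before the start (chr8:106603051-106603350, plus strand, GRCm38). The E-box was found in 21 of the 72 regions (29.2%) and in 25.3% of all regions. The region 42.1 kb upstream is shown because it held the other CTCF consensus, in capitals (chr8:106561140-106561439, plus strand, GRCm38); by the mean over the 4 lists it was the strongest Cdh1 region outside 1 kb, at the 75.1 and 75.1 percentiles in WT against 83.3 and 86.9 in K20R.
Cdh1 promoter: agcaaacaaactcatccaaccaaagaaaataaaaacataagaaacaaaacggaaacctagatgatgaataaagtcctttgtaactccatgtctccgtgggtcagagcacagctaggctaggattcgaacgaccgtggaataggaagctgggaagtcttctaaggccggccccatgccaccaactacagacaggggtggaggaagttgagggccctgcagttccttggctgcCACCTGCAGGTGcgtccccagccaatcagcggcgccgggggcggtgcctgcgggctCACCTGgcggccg
Cdh1 upstream region: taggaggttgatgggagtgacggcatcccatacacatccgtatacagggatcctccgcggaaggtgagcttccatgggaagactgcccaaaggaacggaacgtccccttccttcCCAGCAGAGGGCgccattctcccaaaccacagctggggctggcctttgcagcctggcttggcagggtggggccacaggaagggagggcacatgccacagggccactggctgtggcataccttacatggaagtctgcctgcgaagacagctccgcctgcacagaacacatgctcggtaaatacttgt

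Vim, at chr2:13573952-13582826 on the plus strand, had 7 regions. The promoter pileup was 86 and 163 in WT against 87 and 116 in K20R (-0.34 ± 0.14, limma adjusted p = 0.0909), values that overlapped and did not pass. The strongest distal region was the promoter of the neighbour Trdmt1 at chr2:13543931-13545138, at 94.9 and 92.9 in WT against 94.0 and 91.3 in K20R (-0.06 ± 0.13, limma adjusted p = 0.786). Both WT-restricted regions of Vim lay upstream. The one in a Trdmt1 intron, chr2:13523251-13524297, had its summit 50.2 kb before the start and stood at the 50.7 and 79.5 percentiles with a pileup of 20 and 59. The intergenic one, chr2:13558570-13559152, 15.1 kb before the start, stood at 45.0 and 46.7 with 18 and 24. Neighbouring peak numbers were consecutive at both in both K20R lists, so neither had been called there in K20R. Without WT replicate 1 the count of WT-restricted regions at Vim was 4. The intergenic region is shown as the nearest WT-restricted element of Vim; capitals mark its AP-1 motif (TGANTCA), which was found in 9 of the 72 regions (12.5%) and in 9.78% of all regions (chr2:13558682-13558981, plus strand, GRCm38).
Vim upstream region: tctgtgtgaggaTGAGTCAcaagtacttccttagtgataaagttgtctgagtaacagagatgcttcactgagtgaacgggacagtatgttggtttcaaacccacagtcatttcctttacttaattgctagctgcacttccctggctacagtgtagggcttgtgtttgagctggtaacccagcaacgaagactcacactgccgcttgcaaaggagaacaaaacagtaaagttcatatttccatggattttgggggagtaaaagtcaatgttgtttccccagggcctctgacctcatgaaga

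Among fibroblast markers, a list relevant because Vim is high in fibroblasts and the stem cells had been grown on them, 0 of 7 tested promoters were called (limma; 1 lower and 0 higher at an unadjusted p under 0.05; Twist2 and Prrx1 are also counted below as EMT transcription factors). Only promoters with a peak in all 4 lists were tested, which left out that of Dcn, a matrix gene, at the 67.9 and 77.7 percentiles in WT, absent in K20R replicate 1 and at 24.7 in K20R replicate 2. The median promoter percentile of the list was 59.1 and 69.4 in WT against 58.8 and 57.0 in K20R. The part of such cells in the Vim values was not tested, and in these bulk samples fewer cells of a type and less open chromatin per cell cannot be told apart.

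Zeb1, at chr18:5591864-5775467 on the plus strand, encodes a homologue of Zeb2. It had 2 regions, both within 1 kb of the start, with a pileup of 42 and 53 in WT against 49 and 58 in K20R at the promoter (0.13 ± 0.19, limma adjusted p = 0.697) and of 32 and 33 against 30 and 53 at the second (0.23 ± 0.22, limma adjusted p = 0.527). The nearest other regions were 145 and 215 kb away, and the first of these was WT-restricted at the 14.3 and 21.0 percentiles.

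Cdh2, at chr18:16588877-16809246 on the minus strand, had the plainest loss of elements. Its main promoter did not differ, with a pileup of 82 and 112 in WT against 79 and 131 in K20R (-0.02 ± 0.13, limma adjusted p = 0.935). Inside the gene 5 intronic regions were WT-restricted. The strongest, chr18:16708893-16710154, lay 39.2 kb from the second annotated start, at the 82.8 and 89.0 percentiles of the WT lists with a pileup of 56 and 110; the promoter itself stood at 82.2 and 77.6. The region chr18:16718691-16719648 stood at 74.0 and 74.9 with 34 and 53. The regions at chr18:16780681-16781244 (55.6 and 44.2), chr18:16690570-16691431 (11.4 and 50.1) and chr18:16788695-16789033 (24.8 and 12.4) were weaker.

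In K20R the deposited lists held no peak at all over 137 kb in replicate 1 and 136 kb in replicate 2, from a region at the second annotated start to the main promoter, where WT had 6 and 9 peaks. A single called number was missing there in each K20R list, so at most 1 peak had been called in that interval and left out. The region at the second start itself was weak and leaned the other way, absent in WT replicate 1, at the 7.0 percentile in WT replicate 2 and at 15.8 and 39.3 in K20R. Of 21827 genes, 47 (0.215%) had at least 5 WT-restricted regions within 50 kb of their starts, and 66.2% had 0. These counts took in the windows of all annotated starts, so a gene with distant starts had more sequence to draw on. At Cdh2 the WT-restricted regions near the second start lay 90.4 to 118.3 kb from the main 5′ end. Within 50 kb of that end lay only the WT-restricted regions 28.4 and 20.4 kb away, and 10.8% of genes had at least 2. The 0.215% for the count of 5 at Cdh2 is therefore not a like comparison with genes of 1 start. The count at Cdh2 was 3 with peaks of a -log10 q of at least 5 and 3 with lists of equal length, and it was 7 without WT replicate 1.

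The other genes of the programme were taken by fixed lists, and a promoter was counted by its strongest common region within 1 kb. None of 10 other EMT transcription factors was called (limma; 0 lower and 1 higher at an unadjusted p under 0.05; Tcf3 at 0.32 ± 0.12 had the lowest adjusted p, 0.0666). Of 10 genes of the TGF-beta route, the main inducer of EMT, 3 were lower and 0 higher, where 5.29% of the 14534 gene promoters were lower and 7.43% higher. These were the ligand Tgfb2 (-0.49 ± 0.17, pileup 51 and 81 in WT against 38 and 60 in K20R), the co-receptor Tgfbr3 (-0.44 ± 0.14) and the signal transducer Smad3 (-0.40 ± 0.13). Around the 10 genes 17 of 90 regions (18.9%) were WT-restricted and 0 K20R-restricted, beside 10.4% and 3.1% of all regions. The receptors Tgfbr1 and Tgfbr2 had values of 0.01 and 0.13.

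Of 23 epithelial genes tested, 6 were higher and 1 lower, against the same 7.43% and 5.29% of all gene promoters. The junction genes Cldn4 (0.49 ± 0.15), Cldn7 (0.44 ± 0.15) and Ocln (0.44 ± 0.14), the protease gene St14 (0.58 ± 0.13), Ctnnb1, whose product beta-catenin binds cadherins (0.56 ± 0.16), and Cdh3, which encodes P-cadherin (0.79 ± 0.13), rose, and the keratin gene Krt8 fell by 0.50 (SE 0.14). Of 13 mesenchymal genes tested, 3 were lower and 2 higher. The matrix gene Tnc had a pileup of 71 and 102 in WT against 33 and 45 in K20R (-1.21 ± 0.16, limma adjusted p = 6.2e-05), and the protease gene Mmp14 (-0.86 ± 0.24) and the matrix gene Fbn1 (-0.46 ± 0.14) were also lower. The 2 higher ones, Mmp2 (0.79 ± 0.14) and Cdh11 (0.59 ± 0.13), lie in the raised stretch of chromosome 8, as do Cdh3 and Esrp2. Outside the stretch the counts were 5 higher and 1 lower of 21 epithelial genes and 0 higher and 3 lower of 11 mesenchymal genes. The median differences over the tested promoters were 0.13 for epithelial and 0.01 for mesenchymal genes. The median of 0.03 for all common regions is not limited to promoters, so it is not a like comparison. The WT-restricted share of regions was 6.54% around the epithelial list and 9.73% around the mesenchymal list. Around the other EMT transcription factors it was 9.32%, beside 10.4% of all regions.

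The microRNAs of the miR-200 family repress Zeb1 and Zeb2 and keep cells epithelial. Their 5 genes lie in a cluster on chromosome 4 and another on chromosome 6, and the mature sequences from RefSeq (GRCm38.p6, 5 of 5 found) are printed because they fall into a pair of seed groups, in capitals (bases 2 to 8), that differ by 1 base.
mmu-miR-141-3p: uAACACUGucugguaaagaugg
mmu-miR-200a-3p: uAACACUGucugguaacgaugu
mmu-miR-200b-3p: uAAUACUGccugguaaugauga
mmu-miR-200c-3p: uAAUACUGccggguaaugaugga
mmu-miR-429-3p: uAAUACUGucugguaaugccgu

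Around the miR-200 genes 6 of 26 regions (23.1%) were WT-restricted and 0 K20R-restricted, beside 10.4% and 3.1% of all regions. The 6 were 3 of 10 in the Mir200b, Mir200a and Mir429 cluster and 3 of 16 in the Mir200c and Mir141 cluster. The strongest of the 6, chr4:156021424-156022398, stood at the 65.4 and 75.9 percentiles in WT. The region that overlapped Mir200c was common and was not called, with a pileup of 33 and 40 in WT against 27 and 41 in K20R (-0.18 ± 0.21, limma adjusted p = 0.616). The chromosome 4 region chr4:156076938-156078438, 21.2 kb from the cluster, was lower, with 78 and 124 against 64 and 96 (-0.42 ± 0.13, limma adjusted p = 0.035). No other common region was called, of 3 in this cluster and 11 in the other. Of all common regions 10.7% were called lower and 9.73% higher.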

How the data were processed

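ATAC-seq peak lists of 4 libraries (2 WT, 2 K20R) were used. According to the submitters' notes and the study's methods, reads were trimmed with Trim Galore and aligned to mm10 with Bowtie2, reads of low mapping quality, duplicates and blacklisted reads were removed, and peaks were called for each library with MACS2 defaults. A shift for the transposase is not given in the sources used here. In the deposited lists the authors give a score, the fold enrichment at the summit as a ratio to local background, and −log10 p-values and q-values for each peak. Peak numbers show that part of the called peaks was left out by the authors' later steps.

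Peaks were ranked by the −log10 p-value within each list. Summit pileup and background were solved from the fold and the Poisson p (whole within 0.05 for all peaks), peaks sharing 1 bp were merged, and log2 pileups of 38527 common regions were quantile-normalised and tested with limma 3.58.1 in R 4.3.3 (eBayes with trend, Benjamini-Hochberg). Genes and starts came from GENCODE vM21, and sequences from GRCm38. The largest peak end lay inside the reference length on all 21 chromosomes. Motifs were CACCTG, the CTCF consensus, TCACACCT, TGANTCA and AGATAA, on both strands within 150 bp of the strongest summit. Restricted regions, called regions, promoters and the strongest distal region of each gene are named, except 1 called region that is not reported here. In 50 simulated regions a side, a change of 2 on the log2 scale was called in 46 lower and 50 higher ones, and a change of 1 in 6 and 17. The other 38327 regions were left unchanged there, unlike in the data, where 4128 were called lower and 3750 higher.

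The 8 genes and the gene lists were chosen with earlier results of these data known, and the lists without Cdh1 and without Cdh2 were counted after the data had been seen. Reads were not used, and no interval for counting error could be given for a percentile. Alternatives were other windows, thresholds, rankings, scalings and each library left out.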

Additional observations from a re-analysis of the deposited data

How the results depend on the processing

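No called result changed direction under any alternative run. The number of WT-restricted regions, 11 of 72, was 1 within 10 kb and 6 without Cdh2, and between 13 and 17 with 1 library left out. The number of K20R-restricted regions, 2, was 0 within 10 kb, 4 within 100 kb, 4 with lists of equal length, 1 with a -log10 q of at least 5, 1 with overlap by at least 50% of a peak, 1 without Cdh1, and between 2 and 5 with 1 library left out. The difference in regions per library, -14.5, was -0.5 within 10 kb (21.0 in WT and 20.5 in K20R) and -8.5 without Cdh2, and lay between -18.0 and -11.0 with 1 library left out. Promoters lower in K20R, 1, numbered 0 when ranked among genes, 0 by fold enrichment, 0 with lists of equal length and 2 to 5 with 1 library left out; promoters higher, 1, numbered 2 among genes, 2 with lists of equal length and 1 to 3 with 1 library left out. Member regions called by limma were 4 lower and 6 higher of 35, beside 4128 and 3750 of all 38527 common regions. With fold enrichment they were 3 and 2, beside 1401 and 956 of all, and 3 of the 10 kept their call. With a -log10 q of at least 10 they were 1 lower and 4 higher of 17, beside 1979 and 1791 of 21783. Without Cdh1 the higher count was 1. With any 1 library left out a genotype keeps a single library, and the called regions kept their direction. With 1 library left out fewer libraries have to agree. Counts of restricted regions and of promoters lower or higher can then only stay or rise. The cause of the other changes was not tested. Replicate 2 had the higher pileups in each genotype, a shift that normalisation removes. After it, the deviations of samples of the same replicate number had a correlation of 0.051. With a replicate block limma called 6 member regions lower and 6 higher, beside 4884 and 4758 of all common regions. The Vim promoter passed there (limma, adjusted p = 0.0334). In the simulation a change of 1 on the log2 scale was seldom called, but few regions were changed there. In the data, with 2 libraries a genotype, smaller differences passed, among them -0.53 ± 0.18 beside the Twist1 promoter. The simulated shares are therefore no detection limit for these data, and regions that did not pass may still differ.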

Other observations

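The lists of germ layer and pluripotency markers were counted in the same way, beside 5.29% lower and 7.43% higher of all gene promoters and 10.4% WT-restricted of all regions. Of 5 endoderm promoters tested with limma, Foxa2 (-1.01 ± 0.10, pileup 165 and 266 in WT against 95 and 140 in K20R), Gata6 (-0.87 ± 0.14) and Gata4 (-1.16 ± 0.17) were lower in K20R and 0 were higher, and 14 of 43 regions around the list (32.6%) were WT-restricted. Of 9 early mesoderm promoters T (-0.63 ± 0.14) and Mesp2 (-1.10 ± 0.15) were lower, and Mesp1 had a value of -0.10 ± 0.16. Of 8 pluripotency promoters Pou5f1 (0.47 ± 0.11), Sox2 (0.41 ± 0.14), Zfp42 (0.75 ± 0.16) and Dppa5a (0.86 ± 0.16) were higher and Tdgf1 (-0.60 ± 0.12) was lower. None of 6 neuroectoderm promoters was called (limma; 0 also at an unadjusted p under 0.05). The WT-restricted share was 11.3% around the early mesoderm list, 4.35% around the pluripotency list and 4.35% around the neuroectoderm list. Around the pluripotency list 9.78% of regions were K20R-restricted, beside 3.1% of all regions.

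The percentile and the pileup ranked some regions differently. The Snai1 intron region chr2:167539924-167540919 stood at the 4.73 and 18.9 percentiles in WT against 36.6 and 33.1 in K20R, while its pileup was 41 and 61 against 43 and 58. The Mesp1 promoter stood at 43.5 and 43.4 in WT against 67.3 and 72.4 in K20R, with a pileup of 50 and 71 against 47 and 72.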
